A study of Homo sapiens with 12 samples.

Results

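The NF-κB system of 624Mel cells, an established human melanoma line, was followed through 10 genes. Of these, NFKB1, NFKB2, RELA and RELB encode subunits of the transcription factor, and NFKBIA, NFKBIZ, TNFAIP3, TNFAIP2, BCL3 and BIRC3 encode inhibitors, cofactors and feedback genes. They were listed by name, with earlier results of these data known, and each of the 10 matched a single entry among the 40173 gene IDs of the deposited table. Expression was measured by RNA sequencing in 12 libraries, 3 in each of 4 conditions. In siCTRL, cells received a negative control siRNA by reverse transfection. In siMITF they received an siRNA against MITF, the transcription factor that drives the melanocytic programme. In siCTRL + IFNγ and siMITF + IFNγ the same transfections were followed after 24 h by interferon gamma at 5 ng/mL, and RNA was taken after another 24 h, which is 48 h after transfection in all conditions. Every condition thus carries a transfected siRNA, and the comparisons rest on 1 cell line and 1 siRNA against MITF. The question behind the design was whether loss of the melanocytic state changes the response to IFNγ. The study's methods describe its experiments as run in independent biological replicates. The p-values rest on the spread between the 3 libraries within a condition, pooled over all 4 conditions. The main fit leaves out the replicate number, which an alternative fit uses as a block.

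NF-κB dimers of Rel family proteins are held inactive by IκB proteins such as IκBα, the product of NFKBIA. In the canonical route a kinase complex (IKK) marks IκBα for destruction and frees dimers of RELA (p65) with the NFKB1 product p50. In the non-canonical route the NFKB2 product p100 is processed to p52, the partner of RELB. Active dimers induce the genes of their own restraints, among them NFKBIA and TNFAIP3, which closes a feedback loop, and in melanoma cells the pathway feeds cytokine and survival genes. Its activity is set largely by protein degradation and nuclear entry, which RNA levels do not measure.

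Levels are given in TPM, a relative unit in which transcripts are scaled by their length and by the library total, so that genes can be compared. In bulk RNA, a lower level in each cell and fewer cells that express a gene cannot be told apart. TPM keep no read depth, so the depth behind each value is unknown and no counting interval is given. Differences are log2 fold changes of TPM + 1 from limma, which was run on 12773 gene IDs that averaged 2 TPM or more in some condition, with the p adjusted by the Benjamini-Hochberg method over all of them. A gene is said to have passed the test, to have risen or to have fallen, with an adjusted p under 0.05. Of the members, 7 were tested, while RELB, TNFAIP2 and BIRC3 stayed under the minimum of 2 TPM in every condition. With 3 libraries on each side an exact permutation p stops at 0.1, so no such test is given for single genes.

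The labels were checked first. MITF stood at 211 ± 21.7 TPM (SD, n = 3) in siCTRL and at 42.5 ± 6.87 TPM in siMITF libraries, which is -2.29 on the log2 scale (limma adjusted p = 1.157e-06). IRF1, a direct IFNγ target, went from 2.49 ± 0.29 TPM in siCTRL to 88.0 ± 12.8 TPM with IFNγ. The summed TPM of 6 melanocytic markers ran from 5390 to 7135 in the libraries without MITF knockdown and from 1612 to 1962 in those with it, and each of the 6 passed the 2 TPM minimum. Most of that sum was PMEL, and of the 6 markers 5 were lower and 1, S100B, was higher with MITF knockdown (81.8 ± 4.13 to 167 ± 4.42 TPM, log2 fold change 1.02). Markers of endothelial cells summed to at most 0.80 TPM and those of keratinocytes to at most 0.07 TPM, and neither list had a tested gene. The fibroblast list ran from 5.29 to 6.73 TPM in siCTRL, 2.68 to 3.78 with IFNγ, 7.40 to 8.72 in siMITF and 4.93 to 5.84 with both, most of it LUM (4.77 ± 0.61, 2.57 ± 0.60, 6.91 ± 0.55 and 4.06 ± 0.72 TPM in that order). The immune list summed to between 25.8 and 96.4 TPM, most of it CD68, a lysosomal membrane gene, with the leukocyte gene PTPRC at most at 0.73 TPM and CD3E listed at 0 in every library. The immune sum was lower in the libraries with MITF knockdown (25.8 to 40.8 TPM) than in the others (58.2 to 96.4 TPM), while its member LYZ was higher with knockdown alone (2.44 ± 0.16 to 4.74 ± 0.43 TPM, log2 fold change 0.74). The part of these lists in the differences below was not tested. No 2 libraries were identical, and genes of the mitochondrial genome took from 7.42 to 16.9% of TPM. The highest shares were in replicate 1 of both IFNγ conditions, 16.9% in each.

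Promoter sequences were read because several members are NF-κB targets themselves. RefSeq promoter entries matched 9 of the 10 members with 14 transcription starts, and 250 bases upstream of each start (GRCh38) were searched on both strands for the κB consensus, for the interferon motifs GAS (TTCNNNGAA) and ISRE (a pair of TTTC units 2 bases apart), and for the M-box (TCATGTG or TCACGTG) that MITF recognises. The κB consensus occurred at 8 of the 14 starts, in 6 of the 9 members (NFKB1, NFKB2, NFKBIA, NFKBIZ, TNFAIP3 and BIRC3), against 9.96% of 35114 promoters of all genes. GAS and ISRE each occurred at 1 start, both at start 1 of RELA, against 6.57% and 3.02% of all promoters. The M-box was found at the same RELA start and at TNFAIP3, against 5.75%. Start 1 of RELA lies outside the gene span given below. Start 2 of RELA, within that span, held none of the 4 motifs. The 4 stretches below are upstream of genes that passed a test and contrast in these letters, and they stop where an annotated exon begins before the start. Capitals mark κB and M-box matches that lie whole within the stretch. NFKBIA lies on the minus strand (chr14:35404750-35404999) with 1 κB match at -81 to -72 from the start. TNFAIP3 (chr6:137867009-137867213, plus strand) holds an M-box that reads on both strands at -79 to -72, followed by κB matches at -67 to -58 and -55 to -46. The stretch before start 3 of NFKB2 (chr10:102395455-102395692, plus strand) holds 1 κB match at -176 to -167, and another at -21 to -12 runs past its end. BCL3 (chr19:44748458-44748694, plus strand) holds none of the 4 motifs.
NFKBIA: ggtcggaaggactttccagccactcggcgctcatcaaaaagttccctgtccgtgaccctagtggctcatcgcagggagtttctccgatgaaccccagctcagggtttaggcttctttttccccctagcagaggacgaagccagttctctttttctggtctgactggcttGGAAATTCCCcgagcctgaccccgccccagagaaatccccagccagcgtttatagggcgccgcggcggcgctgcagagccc
TNFAIP3: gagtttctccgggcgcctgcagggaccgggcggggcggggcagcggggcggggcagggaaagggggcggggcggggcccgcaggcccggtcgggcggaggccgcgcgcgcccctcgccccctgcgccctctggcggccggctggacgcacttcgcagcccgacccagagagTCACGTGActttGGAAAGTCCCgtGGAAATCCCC
NFKB2 start 3: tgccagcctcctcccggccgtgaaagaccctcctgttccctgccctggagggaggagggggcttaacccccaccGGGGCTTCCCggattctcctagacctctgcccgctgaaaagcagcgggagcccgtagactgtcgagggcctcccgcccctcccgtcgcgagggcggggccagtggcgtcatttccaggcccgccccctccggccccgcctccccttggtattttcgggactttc
BCL3: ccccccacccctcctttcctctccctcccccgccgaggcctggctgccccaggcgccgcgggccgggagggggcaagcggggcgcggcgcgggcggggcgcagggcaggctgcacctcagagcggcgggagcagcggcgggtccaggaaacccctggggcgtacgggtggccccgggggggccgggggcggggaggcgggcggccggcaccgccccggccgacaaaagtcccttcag

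A match describes letters in a window and not a bound site, and the RNA data do not bear on which factor acts there. RELB has no entry in the promoter table.

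Among the subunits RELA, the transactivating p65 (ENSG00000173039, chr11:65653599-65663090, minus strand), was the most abundant. Its TPM were 47.0, 49.6 and 46.4 in siCTRL, 51.7, 65.7 and 59.8 in siCTRL + IFNγ, 48.3, 53.7 and 46.3 in siMITF, and 43.5, 60.1 and 55.0 in siMITF + IFNγ, replicates 1 to 3 in each case. The siCTRL + IFNγ libraries lay above all siCTRL libraries, while neighbours in the order of means all overlapped. NFKB2 (ENSG00000077150, chr10:102394110-102402524, plus strand), the gene of p100 and p52, held 23.0, 25.8 and 21.5 TPM in siCTRL, 27.2, 29.9 and 25.9 in siCTRL + IFNγ, 40.3, 39.2 and 36.8 in siMITF, and 34.3, 39.7 and 40.6 in siMITF + IFNγ. The libraries with MITF knockdown lay above those without it, and the siMITF conditions overlapped each other. NFKB1 (ENSG00000109320, chr4:102501330-102617302, plus strand), the gene of p105 and p50, stayed within a narrow band. Its TPM were 17.0, 20.4 and 18.6 in siCTRL, 14.03, 17.7 and 17.4 in siCTRL + IFNγ, 20.4, 21.9 and 20.6 in siMITF, and 16.4, 19.7 and 20.6 in siMITF + IFNγ. RELB (ENSG00000104856, chr19:45001461-45038192, plus strand), the partner of p52, ranged from 0.12 to 2.48 TPM over the 12 libraries with all conditions overlapping.

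Of the restraints, TNFAIP3 (ENSG00000118503, chr6:137867214-137883314, plus strand) was the most abundant member in control cells. It encodes A20, a ubiquitin-editing enzyme that shuts off IKK activation. TNFAIP3 held 94.6, 97.4 and 95.8 TPM in siCTRL, 77.6, 106 and 101 in siCTRL + IFNγ, 37.5, 38.2 and 37.2 in siMITF, and 40.1, 61.0 and 56.2 in siMITF + IFNγ. All 6 libraries with MITF knockdown lay below all 6 without it, and siMITF + IFNγ lay above siMITF. NFKBIA (ENSG00000100906, chr14:35401079-35404749, minus strand) was lowest without any treatment. Its TPM were 12.2, 11.4 and 11.2 in siCTRL, 16.2, 18.9 and 17.7 in siCTRL + IFNγ, 15.6, 15.7 and 15.5 in siMITF, and 15.5, 18.9 and 18.4 in siMITF + IFNγ. The siCTRL libraries lay below all 9 others, and the conditions with IFNγ had the same mean of 17.6 TPM.

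The nuclear IκB proteins act as cofactors of p50 and p52 dimers. NFKBIZ (ENSG00000144802, chr3:101827991-101861022, plus strand), the gene of IκBζ, held 26.6, 28.1 and 28.1 TPM in siCTRL, 22.4, 25.8 and 23.9 in siCTRL + IFNγ, 16.5, 15.1 and 13.1 in siMITF, and 15.3, 13.2 and 15.9 in siMITF + IFNγ. The conditions with MITF knockdown lay below both others and overlapped each other. BCL3 (ENSG00000069399, chr19:44747705-44760044, plus strand) differed most between conditions among the tested members on the log2 scale. Its TPM were 2.97, 3.64 and 2.57 in siCTRL, 8.67, 9.14 and 8.43 in siCTRL + IFNγ, 10.3, 8.68 and 8.84 in siMITF, and 15.3, 15.7 and 17.2 in siMITF + IFNγ. Both single treatments lay above siCTRL and overlapped each other, and siMITF + IFNγ lay above all other libraries. TNFAIP2 (ENSG00000185215, chr14:103121476-103137439, plus strand), a TNF-induced gene, ranged from 0.12 to 0.62 TPM. BIRC3 (ENSG00000023445, chr11:102317484-102339403, plus strand), the gene of the cIAP2 ubiquitin ligase, ranged from 0.02 to 0.59 TPM with all conditions overlapping.

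**Figure D1:**
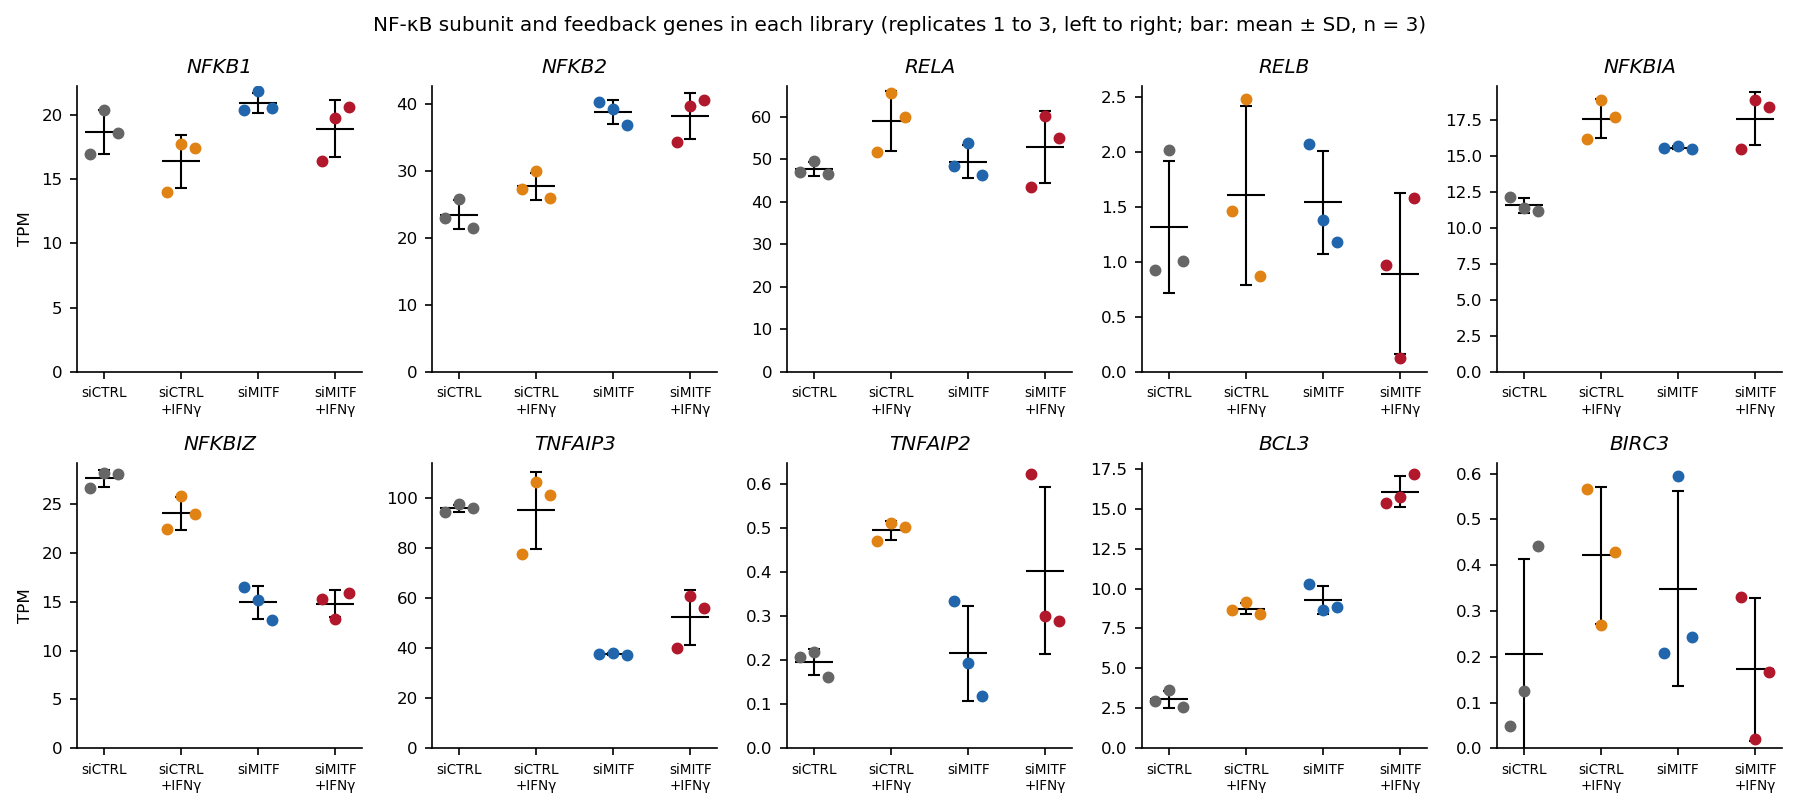
TPM of the 10 members in each of the 12 libraries, 1 panel a gene with its own axis from 0; points are replicates 1 to 3 from left to right and bars are mean ± SD (n = 3). BCL3 climbs from about 3.06 TPM in siCTRL to 16.1 TPM in siMITF + IFNγ, TNFAIP3 and NFKBIZ sit lower in both siMITF conditions, and RELB, TNFAIP2 and BIRC3 stay under 2.5 TPM.

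Annotated exons of other genes overlap 6 members in GENCODE 44, and the sources used here do not say that counting used the strand. Antisense partners overlap RELA (RELA-DT) and TNFAIP3 (WAKMAR2), and unnamed ones overlap TNFAIP2 and BIRC3, while BCL3 overlaps the microRNA gene MIR8085. NFKBIZ shares exon sequence with NXPE3 on the same strand, which averaged 21.6 and 13.4 TPM in control cells without and with IFNγ and 18.3 and 12.3 TPM in MITF-depleted cells. Reads from such pairs cannot be told apart in the shared stretches.

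MITF knockdown without IFNγ moved the members in both directions. BCL3 rose 3.03-fold in mean TPM, NFKB2 1.65-fold and NFKBIA 1.34-fold, while TNFAIP3 fell to 0.39 and NFKBIZ to 0.54 of the siCTRL mean. In limma the log2 fold changes were 1.34 ± 0.11 (SE) for BCL3 (adjusted p = 1.249e-06), 0.70 ± 0.09 for NFKB2 (adjusted p = 8.973e-05) and 0.40 ± 0.09 for NFKBIA (adjusted p = 0.00513). They were -1.33 ± 0.14 for TNFAIP3 (adjusted p = 1.419e-05) and -0.85 ± 0.10 for NFKBIZ (adjusted p = 3.021e-05). NFKB1 (0.16, 95% interval -0.08 to 0.41) and RELA (0.05, interval -0.21 to 0.31) did not pass. So 5 of 7 tested members passed, 3 higher and 2 lower, where 34.8% of all tested genes passed, 21.0% higher and 13.8% lower. BCL3 and TNFAIP3 also reached a 2-fold change, which 6.17% of tested genes did. The libraries of the 2 conditions did not overlap for the same 5 members, which held for 55.0% of all tested genes. The median log2 fold change of the 7 members was 0.16, beside 0.06 over all tested genes.

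IFNγ in siCTRL cells raised BCL3 and NFKBIA. BCL3 reached 2.86 times its siCTRL mean (log2 fold change 1.27 ± 0.11, limma adjusted p = 3.542e-06) and NFKBIA 1.52 times (0.56 ± 0.09, adjusted p = 0.00136). In each replicate number BCL3 was higher by between 5.50 and 5.87 TPM and NFKBIA by between 3.99 and 7.53 TPM. TNFAIP3 had a log2 fold change of -0.03 (95% interval -0.34 to 0.29), NFKBIZ of -0.20 (-0.41 to 0.02) and NFKB1 of -0.18 (-0.43 to 0.07), and none of these passed. All 3 NFKBIZ libraries with IFNγ lay below all 3 without it, and NFKB1 was lower with IFNγ in all 3 replicate numbers. RELA (0.30 ± 0.12, adjusted p = 0.132) and NFKB2 (0.23 ± 0.09, adjusted p = 0.138) did not pass either, although all 3 libraries with IFNγ lay above all 3 without it. With the replicate number as a block both passed, RELA with an adjusted p of 0.0174 and NFKB2 with 0.0478. The differences within a replicate number were 4.62, 16.1 and 13.4 TPM for RELA and 4.23, 4.14 and 4.37 TPM for NFKB2. Both genes also passed after quantile normalization, after centring on the median and after mitochondrial genes were left out with TPM rescaled, and RELA did without siMITF + IFNγ replicate 1 (adjusted p = 0.0494). Thus 2 of 7 members passed, both higher, beside 12.9% of tested genes (6.80% higher, 6.14% lower). With the block 4 of 7 passed, and calls over all tested genes were not counted in that fit. Quantile normalization, which also passed 4 members, called 1178 genes higher and 1647 lower, where the main fit called 868 and 784. In the main fit BCL3 alone reached 2-fold, beside 2.61% of tested genes. Libraries did not overlap for 5 members, beside 29.7%, with NFKBIZ lower and BCL3, NFKBIA, RELA and NFKB2 higher. The members' median was 0.23 against -0.07 over all tested genes. Of all passing genes 52.5% were higher, a share that moved to 41.7% after quantile normalization.

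IFNγ in MITF-depleted cells raised BCL3 again, from 9.27 to 16.1 TPM on average (1.73-fold, log2 fold change 0.74 ± 0.11, limma adjusted p = 0.000447). TNFAIP3 went from 37.6 ± 0.55 to 52.4 ± 10.97 TPM (SD, n = 3), 1.39-fold, with a log2 fold change of 0.45 ± 0.14 and an adjusted p of 0.0454, just under the threshold. The within-number differences of TNFAIP3 were 2.52, 22.8 and 19.0 TPM, and replicate 1 thus had the smallest difference. Without siMITF + IFNγ replicate 1 the log2 fold change of TNFAIP3 was 0.62 (adjusted p = 0.00247), and with the replicate block the adjusted p was 0.00567. The call was lost in 9 of 12 fits with a library removed, namely without any 1 siCTRL or siMITF library, siCTRL + IFNγ replicate 3, or siMITF + IFNγ replicate 2 or 3 (adjusted p from 0.0595 to 0.147). NFKBIA had a log2 fold change of 0.16 (95% interval -0.04 to 0.36), RELA of 0.09 (-0.17 to 0.34) and NFKB1 of -0.14 (-0.39 to 0.10), and none of them passed. NFKB2 and NFKBIZ were at -0.02 and -0.01, with signs that turned under other scalings. In all, 2 of 7 members passed, both higher, beside 20.2% of tested genes (7.99% higher, 12.2% lower). No member reached 2-fold, which 2.98% of tested genes did, and libraries did not overlap for 2 members, beside 40.5%. The median of the members was 0.09, beside -0.10 over all tested genes.

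With IFNγ present, MITF knockdown again separated BCL3 and NFKB2 from TNFAIP3 and NFKBIZ. BCL3 rose 1.84-fold (log2 fold change 0.81 ± 0.11, limma adjusted p = 0.00011) and NFKB2 1.38-fold (0.45 ± 0.09, adjusted p = 0.00287). TNFAIP3 fell to 0.55 of its level in siCTRL + IFNγ (-0.86 ± 0.14, adjusted p = 0.000549) and NFKBIZ to 0.62 (-0.66 ± 0.10, adjusted p = 0.000245). NFKBIA did not pass, with a log2 fold change of 0.00 and a 95% interval from -0.20 to 0.20. RELA (-0.16, interval -0.42 to 0.10) and NFKB1 (0.20, interval -0.05 to 0.44) did not pass. After quantile normalization NFKB1 did pass (limma adjusted p = 0.0213). After median centring both passed (NFKB1 limma adjusted p = 0.0228, RELA -0.17 with adjusted p = 0.0485). The count of members thus went from 4 to 5 and to 6. Calls over all tested genes went from 2348 higher and 1881 lower to 2885 and 2811, and to 2876 and 2648. The 4 of 7 members that passed in the main fit, 2 in each direction, stand beside 33.1% of tested genes (18.4% higher, 14.7% lower). None of them reached 2-fold, beside 5.74% of tested genes, and the same 4 had libraries that did not overlap, beside 38.3%. The members' median was 0.00, and that of all tested genes 0.03.

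Set against untreated siCTRL, the combination gave the largest single change among the members. BCL3 reached 5.25 times its siCTRL mean (log2 fold change 2.08 ± 0.11, limma adjusted p = 1.112e-08). NFKB2 (0.68 ± 0.09, adjusted p = 8.662e-05) and NFKBIA (0.56 ± 0.09, adjusted p = 0.000361) were also higher. TNFAIP3 (-0.88 ± 0.14, adjusted p = 0.000303) and NFKBIZ (-0.86 ± 0.10, adjusted p = 1.934e-05) were lower. NFKB1 was at 0.02 (95% interval -0.23 to 0.26) and RELA at 0.13 (-0.12 to 0.39). That is 5 of 7 members, 3 higher and 2 lower, beside 44.5% of tested genes (21.1% higher, 23.4% lower). Only BCL3 reached 2-fold, beside 8.81%, and the libraries of 5 members did not overlap, beside 53.1%. The members' median was 0.13, beside -0.04 over all tested genes. This comparison shares its siCTRL libraries with both single treatments, so their values are not independent of each other.

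Whether the IFNγ response differs with MITF level is the interaction. In limma 0 of 7 members passed it, beside 0.947% of tested genes. The members with the smallest p were BCL3 (-0.54 ± 0.16, adjusted p = 0.206), NFKBIA (-0.40 ± 0.13, adjusted p = 0.326) and TNFAIP3 (0.47 ± 0.20, adjusted p = 0.598), all by limma. A response that passed in 1 background and not in the other, as with NFKBIA and TNFAIP3, is therefore not shown to differ between them. On the TPM scale BCL3 rose by 5.69 TPM with IFNγ and by 6.21 TPM with siMITF, together 11.9 TPM, and by 13.01 TPM with both. Its departure from the sum was 1.12 ± 0.84 TPM (SE). For NFKBIA the single differences were 6.02 and 3.99 TPM, and the combination gave 6.02 TPM, a departure of -3.99 ± 1.36 TPM. For NFKB2 the departure was -4.80 ± 2.83 TPM, for TNFAIP3 15.6 ± 10.9 TPM and for NFKBIZ 3.47 ± 1.67 TPM. For RELA it was -7.90 ± 6.81 TPM and for NFKB1 0.24 ± 2.07 TPM. Of the tested members, NFKBIA and NFKBIZ departed from 0 by more than 2 SE, NFKBIZ only just. These SE rest on 3 libraries per condition and leave out the replicate number, so 2 SE is a description and not a test. In limma the interaction of NFKBIZ was 0.19 (adjusted p = 0.900). For BCL3 the interaction estimate was thus negative on the log2 scale and the departure in TPM positive but within 2 SE of 0.

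**Figure D2:**
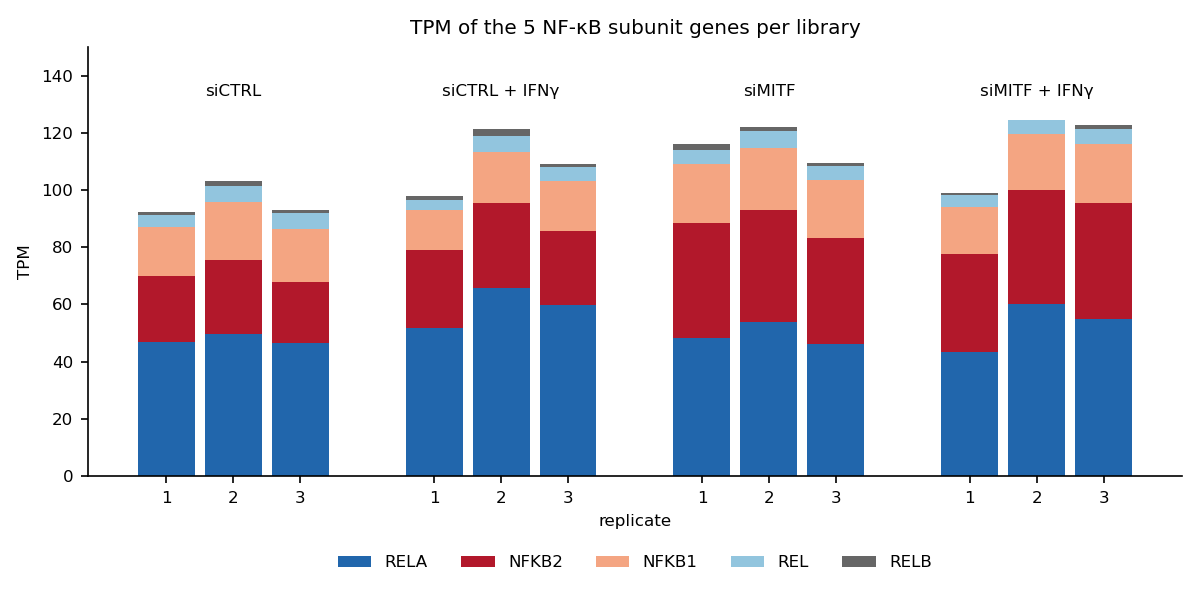
TPM of RELA, NFKB2, NFKB1, REL and RELB stacked in each of the 12 libraries, by condition and replicate. The red NFKB2 segment is larger in both siMITF conditions, and the whole bar runs from 92.3 to 125 TPM.

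The composition of the subunit RNA pool was described with REL, the remaining Rel family gene, added to the 4 subunit members. The 5 genes summed to 96.1 ± 6.20 TPM (SD, n = 3) in siCTRL and 109 ± 11.7 TPM with IFNγ added, and in MITF-depleted cells to 116 ± 6.29 TPM without and 115 ± 14.2 TPM with IFNγ. RELA made up 49.7 ± 1.51% of this sum in siCTRL, 53.9 ± 1.12% with IFNγ, 42.6 ± 1.18% in siMITF and 45.7 ± 2.32% with both. NFKB2 made up 24.4 ± 1.02%, 25.4 ± 2.09%, 33.5 ± 1.33% and 33.2 ± 1.32% in the same order. The NFKB2 shares of the siMITF conditions (31.9 to 34.7%) did not overlap those of the siCTRL conditions (23.2 to 27.8%). NFKB1 made up 19.4 ± 0.86%, 14.97 ± 0.90%, 18.1 ± 0.60% and 16.4 ± 0.49%, and its shares with IFNγ lay below those without it. The ratio of NFKB2 to NFKB1 RNA was 1.259 ± 0.097 in siCTRL and 1.70 ± 0.23 with IFNγ added, and in MITF-depleted cells 1.85 ± 0.11 without and 2.02 ± 0.06 with IFNγ. REL stayed between 3.77 and 5.72% and RELB at or under 2.05% of the pool in every library. These shares sum to the whole, so a higher share of NFKB2 lowers the others.

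For the 3 members below the minimum a fit without the filter passed none in any comparison. TNFAIP2 held 0.21, 0.22 and 0.16 TPM in siCTRL, 0.47, 0.51 and 0.50 in siCTRL + IFNγ, 0.33, 0.19 and 0.12 in siMITF, and 0.62, 0.30 and 0.29 in siMITF + IFNγ. It was higher with IFNγ in all 3 replicate numbers of both backgrounds, and its libraries did not overlap in siCTRL cells (log2 fold change 0.32 on the TPM + 1 scale, limma adjusted p = 0.0796). In MITF-depleted cells its log2 fold change was 0.20 with an adjusted p of 0.233. At such levels the pseudocount of 1 understates changes, and the mean of TNFAIP2 in TPM with IFNγ in siCTRL cells was 2.53 times its siCTRL mean. BIRC3 and RELB were not higher with IFNγ in all 3 replicate numbers of either background.

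The rest of the pathway was read from 3 further lists, with 28 of 32 receptor, adaptor and kinase genes tested, 12 of 14 other subunit, IκB and brake genes, and 14 of 27 target genes. The ligand genes TNF, LTA, LTB, TNFSF11, TNFSF12, TNFSF14, IL1A and IL1B were all under the minimum, with no library above 0.13 TPM. MYD88, the adaptor of Toll-like and interleukin-1 receptors, was listed at no more than 0.23 TPM in any library, and the table does not tell whether the cells or the transcript annotation set that value. The target SOD2 had no matching ID, and 12 of the other targets were below the minimum.

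Among receptors, adaptors and kinases, MITF knockdown without IFNγ was accompanied by 7 genes higher and 3 lower of 28. Together they are 10 of 28, close to the 34.8% of all tested genes that passed. MALT1, the paracaspase that relays signals to IKK, went from 11.9 ± 1.27 to 33.5 ± 3.599 TPM (SD, n = 3; log2 fold change 1.42, limma adjusted p = 2.023e-06). TNFRSF12A, the receptor of the ligand TWEAK, went from 32.3 ± 2.25 to 86.4 ± 3.26 TPM (1.39), and IRAK1 from 113 ± 10.9 to 204 ± 18.7 TPM (0.84). TLR4, the lipopolysaccharide receptor, went from 3.598 ± 0.07 to 1.48 ± 0.27 TPM (-0.89). With IFNγ present 6 were higher and 3 lower (18.4% and 14.7% of all tested genes), again with MALT1 (1.37), TNFRSF12A (1.18) and TLR4 (-0.85), and with the adaptor TRAF5 (-0.56). IFNγ in siCTRL cells raised 6 and lowered none of the 28, beside 6.80% of all tested genes higher and 6.14% lower. TLR3, the receptor of double-stranded RNA, went from 2.05 ± 0.72 to 9.20 ± 3.14 TPM (1.72), the TNF receptor TNFRSF1A from 35.7 ± 3.08 to 57.1 ± 7.57 TPM (0.66), and the linear ubiquitin ligase subunit RBCK1 from 92.9 ± 1.75 to 139 ± 8.53 TPM (0.58). In MITF-depleted cells IFNγ raised 5, led by TLR3 (2.12), RBCK1 (0.61) and TNFRSF1A (0.49), and lowered 2, led by the scaffold CARD10 (-0.53), beside 7.99% of all tested genes higher and 12.2% lower. The combination against siCTRL gave 10 higher and 3 lower (21.1% and 23.4% of all tested genes), with MALT1 at 44.4 ± 3.52 TPM (1.82). The median log2 fold change of the 28 was 0.06 for MITF knockdown without IFNγ and 0.04 for IFNγ in siCTRL cells, beside 0.06 and -0.07 over all tested genes.

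The list of other subunit, IκB and brake genes gave at most 1 passing gene in a comparison. Its 12 tested genes included REL, NFKBIB, NFKBIE, CYLD, TNIP1 and TNIP2. With MITF knockdown alone 1 of the 12 fell, where 34.8% of all tested genes passed. This was TAX1BP1, an adaptor of A20, from 241 ± 18.6 to 203 ± 7.43 TPM (SD, n = 3, log2 fold change -0.25). None of the 12 passed for IFNγ in siCTRL cells or for knockdown with IFNγ, where 12.9% and 33.1% of all tested genes did. In MITF-depleted cells IFNγ raised the deubiquitinase CYLD from 7.21 ± 0.61 to 11.03 ± 0.81 TPM (0.55), the 1 of 12 that passed beside 20.2% of all tested genes. The median log2 fold change of the 12 was 0.00 for MITF knockdown without IFNγ, beside 0.06 over all tested genes.

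Target genes also went in both directions. MITF knockdown without IFNγ raised 6 and lowered 1 of 14, beside 21.0% of all tested genes higher and 13.8% lower. The chemokine CCL2 went from 1.77 ± 0.31 to 42.5 ± 5.77 TPM (SD, n = 3; log2 fold change 3.97, limma adjusted p = 1.391e-09), CXCL1 from 1.14 ± 0.33 to 4.95 ± 0.17 TPM (1.49) and the pentraxin PTX3 from 1.39 ± 0.14 to 4.72 ± 0.32 TPM (1.259). BCL2A1, a survival gene known as an MITF target as well, went from 21.996 ± 2.18 to 6.44 ± 0.80 TPM (-1.63). IFNγ in siCTRL cells raised the adhesion receptor ICAM1 from 49.5 ± 3.94 to 441 ± 75.9 TPM (3.12) and CCL2 to 15.1 ± 2.20 TPM (2.53), and lowered SDC4 (-0.56) and IL6 (-0.52), which is 2 of 14 in each direction beside 6.80% higher and 6.14% lower. In MITF-depleted cells it raised ICAM1 (3.15) and CCL2 (1.66) and lowered 5 of 14, led by CXCL8 (-0.70) and SDC4 (-0.70), beside 7.99% higher and 12.2% lower. Knockdown with IFNγ raised 4, led by CCL2 (3.10) and PTX3 (1.06), and lowered BCL2A1 (-1.52), beside 18.4% and 14.7%. The combination raised 4 and lowered 2, beside 21.1% and 23.4%, with CCL2 at 137 ± 20.7 TPM (5.63). The median of the 14 was 0.14 for MITF knockdown without IFNγ and -0.04 for IFNγ in siCTRL cells. No gene of the 3 lists passed the interaction. ICAM1 and CCL2 are IFNγ targets too, and which factor drives a listed gene was not tested.

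The condition means of log2(TPM + 1) spanned at least 1 for BCL3 (2.08) and TNFAIP3 (1.33) and less than 1 for the other 5 tested members. Profiles over the 12 libraries were compared by the root mean square difference of centred log2(TPM + 1). The 3 nearest genes to TNFAIP3 were EFCAB14 (0.10), FAM124A (0.10) and SLC25A43 (0.11). EFCAB14 averaged 43.9 and 44.9 TPM in control cells without and with IFNγ and 18.4 and 22.4 TPM in MITF-depleted cells. The nearest to BCL3 were SIDT2 (0.20), RETREG1 (0.21) and TM7SF2 (0.21), and SIDT2 averaged 6.29, 16.1, 21.5 and 35.7 TPM in the same order. Among the members, RELA and NFKBIA lay nearest to each other (0.18) and TNFAIP3 and BCL3 farthest apart (1.19). NFKBIZ and TNFAIP3, the members that fell with MITF knockdown, were 0.30 apart.

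Replicate 1 was low over all tested genes in the IFNγ conditions. The median log2(TPM + 1) of these genes was 4.14, 4.46 and 4.33 in siCTRL + IFNγ and 4.21, 4.39 and 4.38 in siMITF + IFNγ. It was 4.25, 4.43 and 4.31 in siCTRL and 4.34, 4.43 and 4.31 in siMITF, replicates 1 to 3 in each case. In siCTRL + IFNγ replicate 1 held the lowest TPM of NFKB1, RELA, NFKBIA, NFKBIZ and TNFAIP3. In siMITF + IFNγ it held the lowest of NFKB1, NFKB2, RELA, NFKBIA, TNFAIP3 and BCL3. These replicate 1 libraries had the highest mitochondrial share, 16.9% in each. The share in replicate 3 was 15.7% in siCTRL + IFNγ and 16.1% in siMITF + IFNγ. TNFAIP3 in replicates 1 and 3 was at 77.6 and 101 TPM in siCTRL + IFNγ and at 40.1 and 56.2 TPM in siMITF + IFNγ. Whether the mitochondrial share accounts for the low values was not tested. With mitochondrial genes left out and TPM rescaled, the TNFAIP3 response in MITF-depleted cells was 0.49 (limma adjusted p = 0.0144). That of RELA in siCTRL cells was 0.32 (limma adjusted p = 0.0357).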

How the data were processed

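RNA of 624Mel cells was sequenced (TruSeq RNA v2 libraries) in 4 conditions with 3 libraries each. Per the study's methods the authors trimmed reads with Trimmomatic 0.39 and quantified them with kallisto on the Ensembl GRCh38 transcriptome, and they deposited TPM for each gene ID, without counts. The authors' own test was DESeq2 1.26.0 on counts. The Ensembl release, the summing of transcripts to genes and the strand setting are not given in the sources used here. The IDs used here sum to between 975336 and 982632 TPM per library.

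The log2 of TPM + 1 (pseudocount 1) was tested with limma 3.58.1 in R 4.3.3 (1 coefficient per condition, all 12 libraries, eBayes with an intensity trend, two-sided, Benjamini-Hochberg over the 12773 IDs averaging 2 TPM or more in some condition). limma on TPM stands in for the authors' count test. The members, lists and alternatives were chosen with earlier results of these data known. All members are named. Of the other lists, up to 4 genes per list and comparison with the largest passing change are named, and for members spanning at least 1 on the log2 scale the 3 nearest profiles. Symbols came from GENCODE 44 and promoters from RefSeq. The fit was also run on simulated data with known changes. Their noise was independent between libraries and had the same SD in all conditions. That run therefore does not cover replicate numbers that vary together or spreads that differ between conditions.

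Replicate numbers were checked for pairing. After condition means were subtracted, all 18 pairs of libraries that share a number in different conditions correlated above 0.1 (0.10 to 0.63, median 0.28). The 36 other pairs ran from -0.47 to 0.23 (median -0.20), with 6 above 0.1, so the ranges overlapped. Subtracting the means ties both sets together, so the negative median of the other pairs is not separate evidence. Libraries that share a number thus varied together more than the others. A fit with the replicate number as a block was run beside the main one. Other alternatives were pseudocounts of 0.5 and 0.1, no filter, a 5 TPM minimum on the overall mean, quantile normalization, median centring, TPM rescaled without mitochondrial genes, no intensity trend, only the 2 conditions compared, a 2-fold limit, and each library left out. Tables used Python 3.11.15, numpy 2.4.6 and pandas 2.3.3, and plots used matplotlib 3.10.9.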

Additional observations from a re-analysis of the deposited data

How the results depend on the processing

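Over 7 members and 6 contrasts, 18 of 42 effects passed the test, none of them changed sign, and 17 kept their call under all 22 settings tried beside the 2-fold limit. The exception was TNFAIP3 for IFNγ in siMITF cells. The count of members for that comparison went from 2 to 1 without a filter on low values, without the intensity trend and with only the 2 conditions compared, and was 1 to 2 over the fits that left out 1 library. For IFNγ in siCTRL cells it went from 2 to 4 with quantile normalization, with median centring, without mitochondrial genes and with the replicate block, by adding NFKB2 and RELA. For siMITF with IFNγ it went from 4 to 5 with quantile normalization, by adding NFKB1, and to 6 with median centring, by adding NFKB1 and RELA. The replicate block changed no other call, and calls over all tested genes were not counted with it. Under the scalings they rose as well. For IFNγ in siCTRL cells the main fit called 868 genes higher and 784 lower. These were 1178 and 1647 with quantile normalization, 1238 and 1576 with median centring, and 1154 and 1201 without mitochondrial genes. For siMITF with IFNγ they went from 2348 and 1881 to 2885 and 2811 with quantile normalization, and to 2876 and 2648 with median centring. A 2-fold limit left 2 members for siMITF and 1 for IFNγ in siCTRL cells, 0 for IFNγ in siMITF cells, 0 for siMITF with IFNγ and 1 for the combination.

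Among effects that did not pass, 8 changed sign. Under quantile normalization TNFAIP3 for IFNγ in siCTRL cells was 0.023. For IFNγ in siMITF cells NFKB2 was 0.039, 0.015 and 0.022 and NFKBIZ 0.029, 0.029 and 0.035 with quantile normalization, median centring and mitochondrial genes left out. NFKBIA for siMITF with IFNγ was 0.018 with mitochondrial genes left out. Over the fits that left out 1 library, the ranges were -0.011 to 0.094 for RELA with siMITF, -0.11 to 0.11 for TNFAIP3 with IFNγ in siCTRL cells, and, with IFNγ in siMITF cells, -0.068 to 0.051 for NFKB2, -0.012 to 0.22 for RELA and -0.092 to 0.065 for NFKBIZ. They were -0.058 to 0.082 for NFKBIA with siMITF under IFNγ, -0.045 to 0.11 for NFKB1 in the combination and -0.068 to 0.13 for NFKB1 in the interaction. The cause was not tested. Depth is unknown, 3 libraries per condition limit precision, and RELB, TNFAIP2 and BIRC3 are too low to rank between conditions.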
